A study of Homo sapiens with 8 samples.

Results

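The genes described here encode the chains of collagens and laminins, and were chosen as the rows of the expression table whose symbol is COL, a number, A and a number, or LAMA, LAMB or LAMC and a number. These were 38 of the 16153 genes in the table, of which 37 are described, 27 collagen chains and 10 laminin chains. COL4A3BP, a lipid transfer protein whose symbol only begins like a collagen, was left out. All 37 were annotated as protein coding in GENCODE 29 on GRCh38. RNA was sequenced in 8 libraries of HMEC-1, a line of human microvascular endothelial cells from skin that was immortalised with a viral antigen. Of these, 3 libraries (space_microg) came from cells kept weightless aboard the International Space Station, 2 (space_1g) from cells spun at 1 g in the centrifuge of the same orbital incubator, and 3 (ground) from cells kept in a facility in the home laboratory. The comparisons ask what weightlessness and spaceflight do to the RNA of these cells. All groups were grown on coverslips coated with 2% gelatin, which is itself denatured collagen, in medium with 10% serum, hydrocortisone at 1 µg/ml and EGF at 10 ng/ml, and were kept at 37 °C before they were placed in the culture units. Flight samples were fixed aboard, returned to Earth and stored at 6 °C until they were processed. How the ground samples were stored is not stated separately. The model is 1 immortalised cell line without the neighbouring cells of a vessel wall. The labels do not say whether replicates were separate cultures, so p-values measure the spread between these libraries, which may be technical.

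Collagen chains assemble in threes into triple helices, and laminins form cross-shaped trimers of an alpha, a beta and a gamma chain. Microvascular endothelium lays down a basement membrane, a sheet in which a collagen IV network and a laminin network are joined by linker proteins. In vessels the alpha chains LAMA4 and LAMA5 pair with LAMB1 or LAMB2 and LAMC1. Fibrillar collagens, such as those of types I, III and V, build the cables of the tissue around the vessel. The anchoring chains, which are those of laminin-332, such as LAMA3 and LAMB3, collagen XVII and the collagen VII of anchoring fibrils, are known best from the junction of epidermis and dermis.

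The stretches of DNA before the start sites are shown for the chains on which the results below turn, because COL4A1 and COL4A2 kept a narrow ratio over the libraries, LAMC1 varied little and the others varied widely. COL4A1 and COL4A2 lie head to head on chromosome 13 and share 1 stretch of 126 bases between their start sites (chr13:110307158-110307283, plus strand, COL4A2 reading to the right). The others are the 250 bases before the first base of the transcript, read in the direction of the gene, for COL7A1 (chr3:48595330-48595579, minus strand), COL17A1 (chr10:104085881-104086130, minus strand), LAMA4 (chr6:112254568-112254817, minus strand) and LAMC1 (chr1:183023170-183023419, plus strand). The sequences and their start sites come from RefSeq on GRCh38.p14. The gene spans given further on are those of GENCODE over all annotated transcripts, so that the COL4A1-COL4A2 stretch lies inside the span of COL4A2 and partly inside that of COL4A1, the LAMA4 window lies inside its gene's span and the COL17A1 window partly so. In the RefSeq table a window was found for 27 of the 37 chains. Capitals mark the TATA box TATAAA, the CCAAT box CCAAT and the GC box GGGCGG, on either strand. The AP-1 motif TGANTCA was searched for too.
COL4A1-COL4A2: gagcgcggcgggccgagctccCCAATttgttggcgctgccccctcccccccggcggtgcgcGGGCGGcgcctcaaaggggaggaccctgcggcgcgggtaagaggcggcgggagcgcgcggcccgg
COL7A1: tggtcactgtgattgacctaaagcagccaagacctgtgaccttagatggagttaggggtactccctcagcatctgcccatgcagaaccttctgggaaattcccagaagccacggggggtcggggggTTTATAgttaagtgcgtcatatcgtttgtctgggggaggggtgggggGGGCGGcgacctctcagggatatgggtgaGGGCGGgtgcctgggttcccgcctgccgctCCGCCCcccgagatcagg
COL17A1: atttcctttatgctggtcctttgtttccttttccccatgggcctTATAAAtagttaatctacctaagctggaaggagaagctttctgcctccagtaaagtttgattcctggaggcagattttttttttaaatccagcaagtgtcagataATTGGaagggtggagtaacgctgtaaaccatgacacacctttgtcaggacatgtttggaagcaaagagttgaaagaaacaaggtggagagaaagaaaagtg
LAMA4: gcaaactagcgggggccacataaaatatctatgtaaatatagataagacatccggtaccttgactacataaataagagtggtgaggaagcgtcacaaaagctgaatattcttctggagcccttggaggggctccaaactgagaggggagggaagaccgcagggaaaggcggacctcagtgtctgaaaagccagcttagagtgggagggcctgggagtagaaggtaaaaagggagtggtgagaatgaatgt
LAMC1: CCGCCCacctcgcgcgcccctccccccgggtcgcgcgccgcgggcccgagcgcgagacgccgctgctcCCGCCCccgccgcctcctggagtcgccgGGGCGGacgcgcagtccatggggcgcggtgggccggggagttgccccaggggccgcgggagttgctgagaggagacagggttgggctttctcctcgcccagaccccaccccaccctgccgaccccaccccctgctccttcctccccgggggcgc
The COL4A1-COL4A2 stretch held 1 CCAAT box and 1 GC box and was 80.2% GC. COL7A1 had 3 GC boxes and a TATA box on the reverse strand, COL17A1 a TATA box and a reverse CCAAT box, LAMC1 3 GC boxes, and the LAMA4 window none of the 4 motifs. Over all 35116 windows of 250 bases, TATAAA stood in 10.7%, CCAAT in 32.0%, GGGCGG in 42.6% and TGANTCA in 6.57%. At 126 bases the shares were 5.87%, 21.1%, 34.6% and 3.50%. These matches describe the letters only.

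Values are scaled CPM, which are reads per unit of library size after scaling, so that columns can be compared. The libraries held 24248964 to 35388757 reads over the 16153 genes. Of these reads 0.6002% to 0.813% fell on the 37 chains. The first principal component of all genes held 61.9% of the variance and set 2 libraries apart: space_1g replicate 1 (score 60.7) and ground replicate 3 (64.7), against -31.1 to 1.51 for the other 6. These 2 belong to different groups. Another library, space_microg replicate 2, differed from the gene means along GC content and transcript length, which together accounted for 54.0% of its deviation against 2.21% to 21.4% in the others. Both features bear on these chains, whose longest transcripts have a median of 6483 bases and 59.0% GC, against 3493 bases and 48.3% over all annotated genes of the table. All 12 endothelial markers were measured, with a summed level of 1327 to 1956 CPM in space_microg, 1451 and 1590 in space_1g, and 1871 to 2270 in ground. The sum was thus lower in 4 of the 5 flight libraries than in any ground library, and its part in the differences of the chains was not tested. Of the 12 markers, 3 (ERG, EMCN and ROBO4) were lowest and 1 (CLDN5) highest in the 2 libraries that stand apart. EMCN had 1.04 CPM in space_1g replicate 1 and 1.20 in ground replicate 3, against 12.5 to 21.5 in the other 6. In bulk RNA, fewer cells of a type and less RNA per cell cannot be told apart.

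Basement membrane chains led the order of levels. Per kilobase of the longest annotated transcript, the mean over 8 libraries was highest for LAMB1 at 144 CPM per kb, followed by COL4A2 at 134, LAMC1 at 98.5, COL4A1 at 95.5 and LAMB2 at 84.2. The first fibrillar chain in this order was COL5A2 at 81.9 CPM per kb, and the first network chain COL8A1 at 69.8. COL4A5 (66.1), COL5A1 (58.4), LAMA4 (49.9), COL18A1 (44.5) and LAMA5 (38.6) came next. The fibril-associated collagens were led by COL9A3 at 15.2 CPM per kb, a mean raised by the 2 libraries that stand apart. Its median in the other 6 was 7.67 CPM per kb. Among the anchoring chains COL7A1 had the highest mean, 14.7 CPM per kb, which rested on the 2 libraries that stand apart. In the other 6 its median was 2.42 CPM per kb, below the 7.21 of LAMA3, and LAMA3 was above COL7A1 in 5 of 8 libraries. Lowest of the 37 was COL4A4, at 0.082 CPM per kb. Laminins of the basement membrane took 35.5% to 43.9% of the chains' summed CPM in a library, basement membrane collagens 27.9% to 35.3%, and fibrillar collagens 12.5% to 19.9%.

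**Figure D1:**
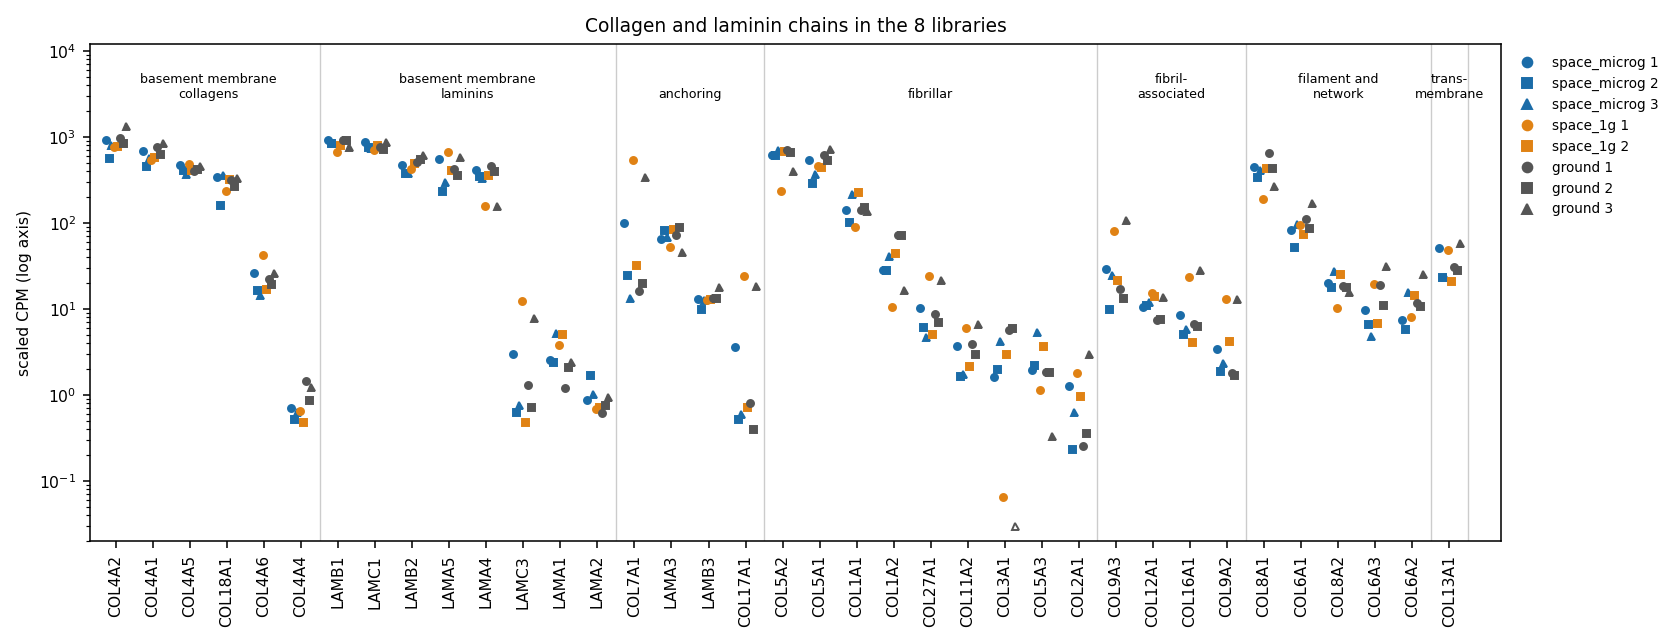
Scaled CPM (log axis) of each of the 37 chains in each of the 8 libraries, grouped by chain class; colour gives the group and the marker shape the replicate, and the open triangle at the bottom is COL3A1 in ground replicate 3, which is 0. LAMC1 points lie within 1.25-fold of each other, whereas COL7A1 and COL17A1 have space_1g replicate 1 and ground replicate 3 far above the rest.

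Collagen IV is the scaffold of every basement membrane, and its common form holds COL4A1 and COL4A2. COL4A1 (chr13:110148963-110307233) stood at 676, 457 and 568 CPM in space_microg, 534 and 577 in space_1g, and 762, 638 and 844 in ground. Both space_1g libraries and all but 1 of the space_microg libraries were below the lowest ground library. COL4A2 (chr13:110305812-110513209) showed the same relation, with 927, 573 and 809 CPM in space_microg, 756 and 790 in space_1g, and 957, 854 and 1318 in ground. The GENCODE spans of these 2 genes, which take in all annotated transcripts and so reach past the RefSeq start sites, overlap by 1422 bases on opposite strands. How strand was used in counting is not stated in the labels, so reads from that overlap cannot be assigned to 1 gene with certainty. The minor collagen IV chain COL4A5 was flat by comparison, at 367 to 486 CPM in all 8 libraries. COL4A6, whose start site lies 379 bases from that of COL4A5 on chromosome X, was much lower, at 14.5 to 42.3 CPM with its highest value in space_1g replicate 1. COL4A4 was near the floor of detection with 0.491 to 1.46 CPM. COL18A1, the source of endostatin, was lowest at 163 CPM in space_microg replicate 2 and lay between 233 and 360 CPM elsewhere.

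Among basement membrane laminins the steadiest chain was LAMC1 (chr1:183023460-183145592), the gamma chain of most laminins. It stood at 866, 765 and 747 CPM in space_microg, 693 and 805 in space_1g, and 755, 721 and 865 in ground, a spread of 1.25-fold over all libraries. LAMB1 (chr7:107923799-108003255) was nearly as even at 665 to 920 CPM, or 1.38-fold. The other beta chain, LAMB2 (chr3:49121114-49133118), had 472, 376 and 382 CPM in space_microg, 418 and 500 in space_1g, and 506, 554 and 613 in ground. All 5 flight libraries were below all 3 ground libraries. The vascular alpha chains differed in opposite directions. LAMA4 (chr6:112108760-112254939), made chiefly by endothelium, muscle and fat, stood at 157 CPM in both space_1g replicate 1 and ground replicate 3, and at 328 to 452 CPM in the other 6. LAMA5, the other vascular alpha chain, was highest in those same libraries, at 674 and 584 CPM, against 232 to 546 in the rest. LAMC3, LAMA1 and LAMA2 were low, with means of 3.41, 3.11 and 0.921 CPM.

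Some anchoring chains ranged widely. COL7A1 (chr3:48564073-48595267), the only chain of anchoring fibrils, had 100.2, 25.0 and 13.4 CPM in space_microg, 537 and 32.3 in space_1g, and 16.2, 19.9 and 346 in ground. The lowest and highest libraries differed 40.1-fold, and the groups overlapped widely. COL17A1 (chr10:104031286-104085957), a transmembrane collagen of hemidesmosomes, had 24.1 CPM in space_1g replicate 1 and 18.3 in ground replicate 3. It stood at 3.59 CPM in space_microg replicate 1, and at 0.398 to 0.801 CPM in the remaining 5 libraries. The laminin-332 chains LAMA3 and LAMB3 did not share that pattern. LAMA3 had its lowest values in the libraries that stand apart, 53.0 and 45.8 CPM against 65.1 to 89.4, and LAMB3 ranged only from 10.0 to 18.1 CPM. The 4 anchoring chains described together took 9.44% of the chains' CPM in space_1g replicate 1 and 5.07% in ground replicate 3, against 1.27% to 2.31% in the other 6.

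Most measured keratinocyte and epithelial markers had the same highest pair of libraries as COL7A1 and COL17A1. Of 12 such markers 6 were measured, 5 of them (FLG, DSC3, SFN, DSG3 and KRT15) highest in those libraries, with a summed level of 78.8 CPM in space_1g replicate 1 and 54.2 in ground replicate 3. The range was 4.73 to 15.7 CPM in space_microg, 5.59 to 78.8 in space_1g and 3.07 to 54.2 in ground, and the 6 libraries that did not stand apart lay between 3.07 and 15.7. Filaggrin (FLG), a protein of cornified epidermis, gave 55.7 and 32.5 CPM of these sums, and DSC3, a desmosomal cadherin, 7.64 and 8.70. KRT10, a keratin of the upper epidermis, had 2.57 and 2.70 CPM there and was highest at 4.29 in space_microg replicate 3. KRT5, KRT14, KRT1, TP63, EPCAM and CDH1 had no values in the expression table and are not analysed here. Mural markers, of which 7 of 9 were measured, had 467 and 559 CPM in the same libraries against 193 to 299 in the others. CSPG4 and NOTCH3 made up most of these sums, with ACTA2 and DES also highest there, whereas PDGFRB was lowest there at 8.42 and 14.5 CPM against 21.0 to 37.7, and RGS5 had 13.6 and 9.47 against 9.39 to 17.0. For the fibroblast list, with 3 of 10 measured, the values were 105 and 126 CPM against 71.4 to 96.7. PDPN gave 101 and 120 of these, while THY1 was lowest there at 3.54 and 3.71 CPM against 5.21 to 28.1, and FBLN1 had 0.910 and 2.36 against 1.82 to 4.56. The part of other cell types in the levels of these chains was not tested.

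Fibrillar chains of 1 collagen type did not keep together. COL5A1 (chr9:134641774-134844843), which with COL5A2 sets the diameter of collagen fibrils, had 544, 290 and 366 CPM in space_microg, 460 and 441 in space_1g, and 610, 535 and 713 in ground. Both space_1g libraries were below all ground libraries, while space_microg replicate 1 was just above the lowest ground library. COL5A2 behaved otherwise, with 236 CPM in space_1g replicate 1 and 402 in ground replicate 3 against 619 to 709 in the other 6. COL1A1, the main chain of collagen I, ranged from 90.5 to 228 CPM, and these extremes were the 2 space_1g libraries. COL1A2 (chr7:94394561-94431232) had 28.6, 28.1 and 41.4 CPM in space_microg, 10.5 and 45.0 in space_1g, and 72.4, 71.7 and 16.4 in ground. Here ground replicates 1 and 2 were the highest of all, and the 2 libraries that stand apart were the lowest. COL3A1, the partner of collagen I in distensible tissue, had the same pairs of libraries at either end, at a lower level, with 5.64 and 5.94 CPM in ground replicates 1 and 2, 1.62 to 4.26 in space_microg, 2.98 in space_1g replicate 2, 0.065 in space_1g replicate 1 and no read in ground replicate 3, which allows up to 0.0919 CPM. That limit is 3 reads and covers counting error only. The remaining fibrillar chains, COL27A1, COL11A2, COL5A3 and COL2A1, had means of 11.0, 3.63, 2.31 and 1.07 CPM.

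The fibril-associated collagens, which decorate the surface of fibrils, were highest in the libraries that stand apart for 3 of their 4 chains. COL9A3 (chr20:62816244-62841159), a collagen IX chain known from cartilage, had 29.3, 9.89 and 25.0 CPM in space_microg, 79.8 and 21.4 in space_1g, and 16.9, 13.3 and 108 in ground. COL16A1 had 23.2 CPM in space_1g replicate 1 and 28.2 in ground replicate 3 against 4.15 to 8.52 in the other 6, and COL9A2 had 13.2 and 12.9 against 1.71 to 4.23. COL12A1, a collagen of dense connective tissue, followed another order. Its values were 10.5, 11.0 and 11.9 CPM in space_microg, 15.3 and 14.1 in space_1g, and 7.54, 7.73 and 13.8 in ground, so that both space_1g libraries were above every other library.

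Collagen VI forms beaded filaments near cell surfaces, and collagen VIII forms the hexagonal networks made by endothelium. COL6A3 (chr2:237324003-237414375), the largest collagen VI chain, had 9.80, 6.62 and 4.80 CPM in space_microg, 19.4 and 6.87 in space_1g, and 18.9, 11.0 and 31.8 in ground. All 3 space_microg libraries were below all 3 ground libraries, whereas the space_1g pair straddled them. COL6A1 ranged from 52.7 CPM in space_microg replicate 2 to 171 in ground replicate 3, and COL6A2 from 5.89 to 25.7 CPM between the same libraries. COL8A1 (chr3:99638475-99799226) was the most abundant of this class, with 449, 341 and 412 CPM in space_microg, 191 and 439 in space_1g, and 654, 430 and 271 in ground. Its lowest values were those of the libraries that stand apart. COL13A1, a transmembrane collagen of cell contacts, had 21.2 to 58.7 CPM.

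**Figure D2:**
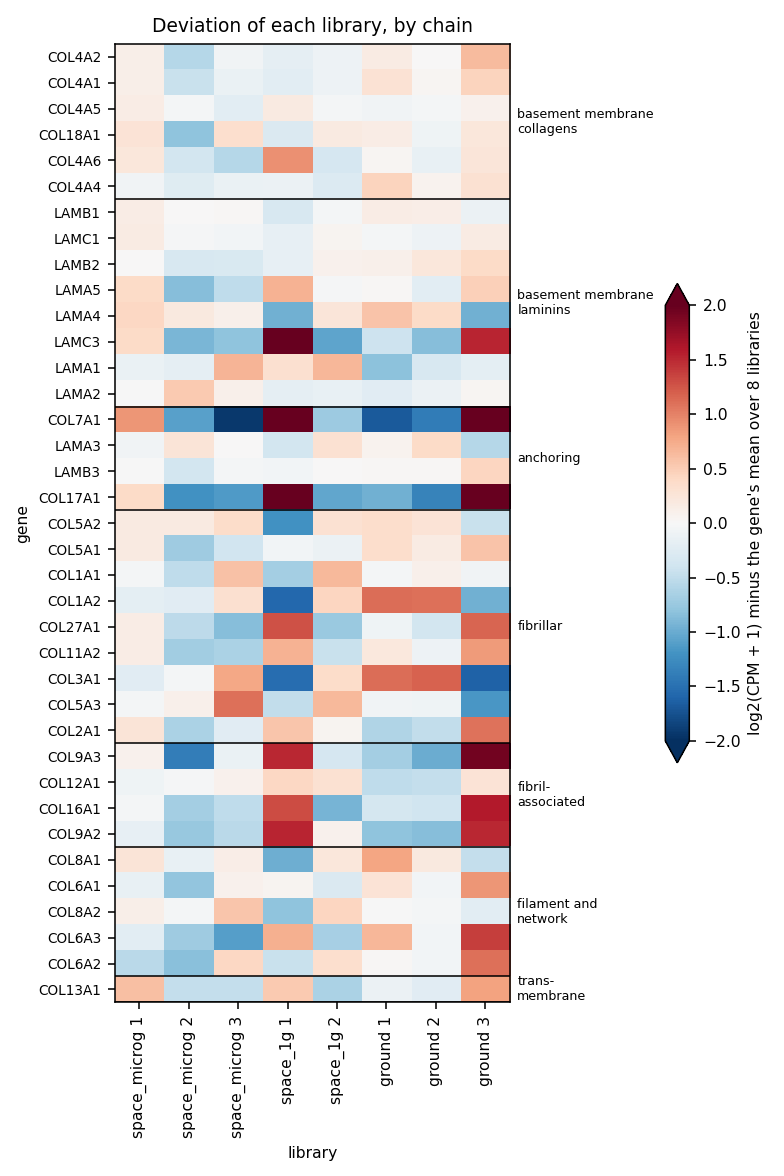
Deviation of each library (columns) from the gene's mean over the 8 libraries, on the log2(CPM + 1) scale, for the 37 chains (rows) grouped by class; colours saturate at 2 in either direction, and the largest deviation, COL7A1 in space_1g replicate 1, lies beyond that. Red in the columns of space_1g replicate 1 and ground replicate 3 marks the chains that are high in both, such as LAMC3, COL7A1, COL17A1 and COL9A3.

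Across the classes, space_1g replicate 1 and ground replicate 3 were the highest pair of the 8 libraries for 12 of 37 chains (32.4%) and the lowest pair for 9 (24.3%). Over all 16103 genes tested the shares were 23.6% and 21.5%. The chains with the highest pair were COL7A1, COL17A1, COL9A2, COL9A3, COL16A1, COL2A1, COL11A2, COL27A1, COL6A3, COL4A6, LAMA5 and LAMC3. Those with the lowest pair were COL1A2, COL3A1, COL5A2, COL5A3, COL8A1, COL8A2, LAMA3, LAMA4 and LAMB1. Since the pair holds 1 library each of space_1g and ground and none of space_microg, it widens the spread within those 2 groups. It also shifts their means, so differences in the tests that follow can rest on it.

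Ratios of chains that share a trimer, or replace each other in it, take out what both have in common. The ratio of COL4A1 to COL4A2, per kilobase, lay between 0.629 and 0.783 in all 8 libraries, a spread of 1.25-fold, while COL4A1 alone varied 1.85-fold and COL4A2 2.30-fold. These genes share the start region printed above. COL4A5 and COL4A6, whose start sites lie 379 bases apart, had a ratio of 12.0 to 26.4, a spread of 2.21-fold. COL4A5 alone varied 1.32-fold and COL4A6 2.93-fold. COL9A3 and COL9A2, which lie on chromosomes 20 and 1, had a ratio of 5.86 to 12.1, a spread of 2.07-fold. Alone they varied 10.9-fold and 7.68-fold. A ratio narrower than either chain was thus not particular to pairs that lie head to head. Whether the shared start regions bear on the collagen IV ratios was not tested. LAMC1 to LAMB1 lay between 0.582 and 0.825, a spread of 1.42-fold that was wider than that of either chain alone. The alpha chain ratio LAMA5 to LAMA4 stood at 2.47 in space_1g replicate 1 and 2.13 in ground replicate 3, and at 0.382 to 0.768 in the other 6. COL5A1 to COL5A2 gave 1.63 and 1.48 in those libraries against 0.390 to 0.734. COL1A1 to COL1A2 gave 7.71 and 7.48 there, 1.74 and 1.92 in ground replicates 1 and 2, and 3.21 to 4.71 in the remaining 4. The first gene of each of these 3 ratios is the richer in GC, with 66.4% against 46.6%, 60.3% against 47.9%, and 61.1% against 41.7%. The beta chain ratio, LAMB2 to LAMB1, was 0.521, 0.456 and 0.461 in space_microg, 0.639 and 0.627 in space_1g, and 0.561, 0.621 and 0.813 in ground. Here all space_microg libraries were below all others. LAMB2 has 60.3% GC and LAMB1 49.5%. The ratios were not recomputed with base composition taken out.

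**Figure D3:**
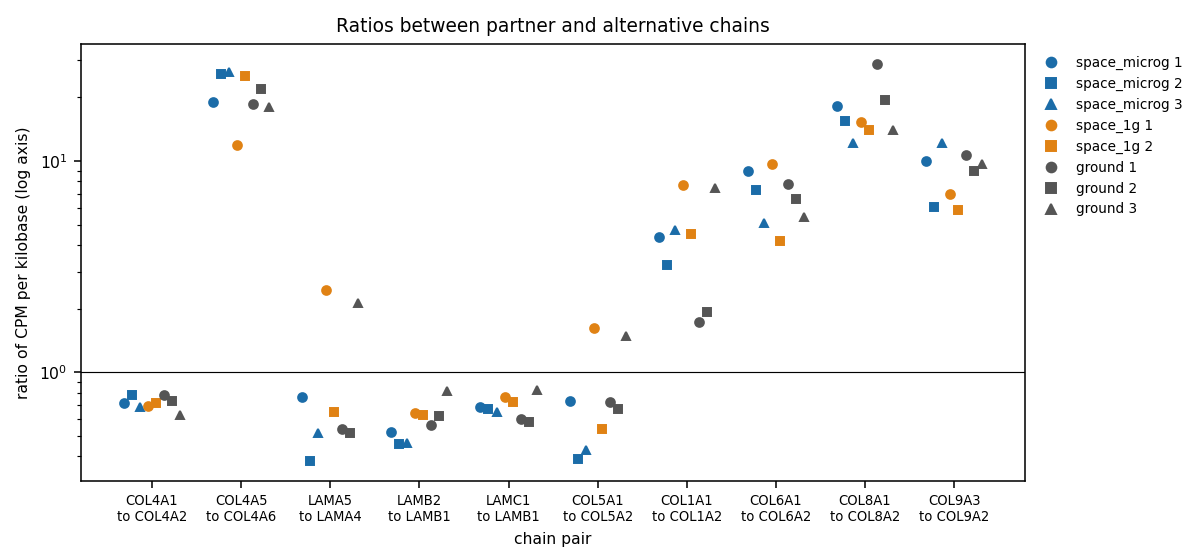
Ratio of CPM per kilobase (log axis) between 10 pairs of partner or alternative chains in each of the 8 libraries; colour gives the group and shape the replicate, and the line marks a ratio of 1. COL4A1 to COL4A2 stays between 0.629 and 0.783, while LAMA5 to LAMA4 and COL5A1 to COL5A2 exceed 1 only in space_1g replicate 1 and ground replicate 3.

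In weightlessness against the ground, 26 of the 37 chains (70.3%) were lower in space_microg, with a median log2 change of -0.29, while 53% of all genes were lower with a median of -0.02. No chain passed the threshold of 0.05 for the adjusted p of limma, fitted to all genes. Of all genes 0% did; the smallest adjusted p was 0.866, also among the chains. Without adjustment, 3 of 37 chains (8.11%) had a p under 0.05, where 4.32% of all genes (696) did, and all 3 were lower, as were 2.27% of all genes at that p. DESeq2 on the recovered reads called 3 genes in all and edgeR 0, none of them a chain. They had 4 and 3 chains at an unadjusted p under 0.05, for which the share of all genes is not given here. The groups did not overlap for 4 chains that were lower (COL6A3, LAMB2, LAMB3 and COL4A4; 10.8%, against 6.53% of all genes) and for 2 that were higher (LAMA1 and COL5A3; 5.41%, against 7.88%). LAMB3 and COL4A4 were separated by narrow gaps or few reads, since LAMB3 reached 13.2 CPM in space_microg against a lowest ground value of 13.4.

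COL6A3 had the largest difference of the 3 chains, with 7.07 ± 2.53 CPM (SD, n = 3) in space_microg and 20.5 ± 10.5 (n = 3) in ground. Its log2 change by limma was -1.34 ± 0.46 (SE; 95% interval -2.40 to -0.29; unadjusted p = 0.018, adjusted p = 0.866). Leaving out 1 library at a time gave -1.71 to -0.98, and the unadjusted p was over 0.05 without space_microg replicate 3 (0.069) or ground replicate 3 (0.057). For COL5A1 the means were 400.0 ± 130 and 619 ± 89.2 CPM, with a log2 change of -0.67 ± 0.24 (interval -1.21 to -0.13; unadjusted p = 0.020, adjusted p = 0.866). LAMB2 gave 410.2 ± 53.9 and 558 ± 53.4 CPM, with a log2 change of -0.45 ± 0.16 (interval -0.82 to -0.072; unadjusted p = 0.025, adjusted p = 0.866). The unadjusted p of COL5A1 was over 0.05 without space_microg replicate 2 (0.082) or 3 (0.059) or ground replicate 3 (0.057), and that of LAMB2 without space_microg replicate 2 (0.082) or 3 (0.073) or ground replicate 2 (0.057) or 3 (0.067). COL5A1 and LAMB2 shrank once trends on GC content and length were taken out of every library, to -0.32 (unadjusted p = 0.094) for COL5A1 and -0.18 (0.36) for LAMB2, while COL6A3 stayed at -1.10 (0.024).

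By class, all 6 basement membrane collagens were lower in space_microg than on the ground, with a median log2 change of -0.34, and 0 of them had an unadjusted p under 0.05. COL4A1 and COL4A2 had log2 changes of -0.41 ± 0.19 and -0.44 ± 0.24 (SE), with intervals of -0.85 to 0.031 and -0.98 to 0.099. Without space_microg replicate 2 they were -0.26 and -0.24, without ground replicate 3 -0.32 and -0.26, and with the GC and length trends removed -0.19 and -0.12. For the 8 basement membrane laminins the median was 0.017, with 5 higher and 3 lower. LAMB1 and LAMC1 were close to 0, at 0.0098 (interval -0.36 to 0.38) and 0.025 (-0.34 to 0.39), which leaves room for changes of that size. The 4 anchoring chains had a median of -0.43 and the 9 fibrillar chains one of -0.19. The median was -0.50 for the 4 fibril-associated chains and -0.65 for the 5 filament and network chains. The sign of the anchoring and fibril-associated medians rested on ground replicate 3, without which they were 0.17 and 0.35, and the fibrillar median was 0.023 without space_microg replicate 2. Without both libraries that stand apart the basement membrane collagen median was -0.18 over 5 chains tested, the filament and network median -0.39, and the median of all 34 chains tested -0.12.

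With those 2 libraries left out, 6 of 34 chains had an unadjusted p under 0.05, where 12.8% of all genes did, and still none passed the adjusted threshold. COL1A2 had the smallest p, with a log2 change of -1.14 ± 0.19 (SE; unadjusted p = 1.4e-04, adjusted p = 0.17), and the 28.1 to 41.4 CPM of space_microg stood against 71.7 and 72.4 of ground replicates 1 and 2. The 2 libraries were left out on the basis of these same data, among them ground replicate 3, where COL1A2 had 16.4 CPM. This p is thus no independent support. With all libraries COL1A2 had 32.7 ± 7.51 CPM (SD) in space_microg and 53.5 ± 32.1 in ground. COL3A1, COL6A3, COL5A1 and LAMB2 were lower too, at -0.98, -0.98, -0.56 and -0.38, and COL12A1 was higher at 0.49. With all 8 libraries COL3A1 was at -0.054 and COL12A1 at 0.23, so the difference of COL3A1 appeared only with the 2 libraries left out. COL1A2, COL3A1 and COL12A1 are named here after their values were seen.

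**Figure D4:**
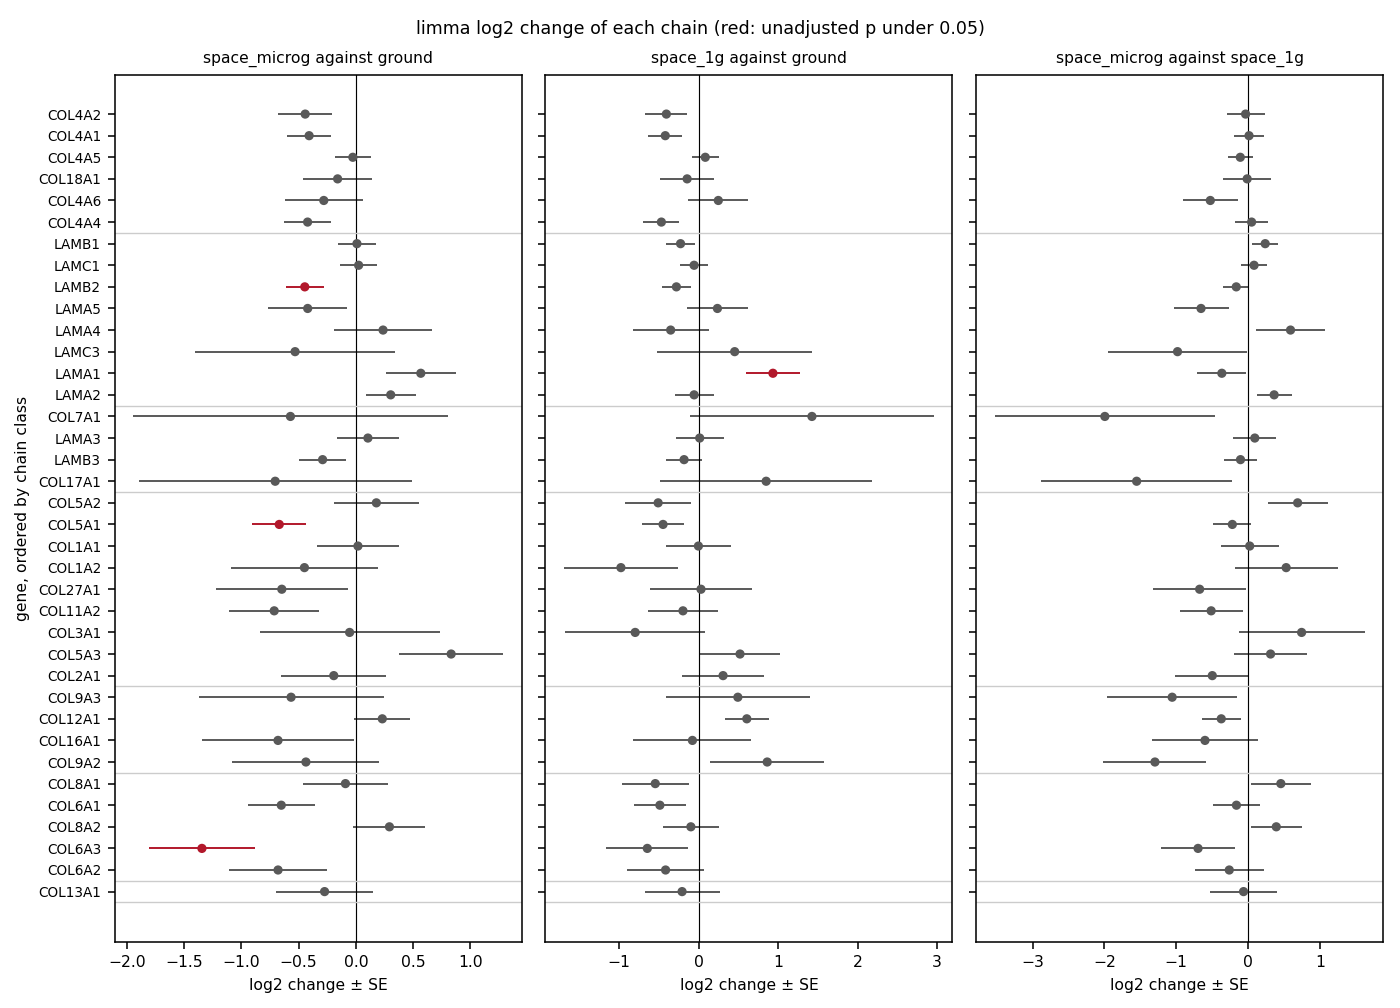
Log2 change of each chain by limma with its SE, on the log2(CPM + 1) scale, for the 3 comparisons; chains are ordered by class and red marks an unadjusted p under 0.05. COL6A3 (-1.34), COL5A1 (-0.67) and LAMB2 (-0.45) are red in the first panel and LAMA1 (0.93) in the second, and the anchoring chains COL7A1 and COL17A1 carry the widest errors.

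For flight in the centrifuge against the ground, 23 of the 37 chains (62.2%) were lower in space_1g, against 48.8% of all genes, with a median log2 change of -0.10 against 0.0061. None was called by limma (0% of all genes; smallest adjusted p 1.00), nor by edgeR or DESeq2. Only LAMA1, an embryonic laminin chain, had an unadjusted p under 0.05 (2.7% of chains, against 1.55% of all genes, or 249, and 0.72% that were higher). It stood at 3.84 and 5.14 CPM in space_1g and 1.20, 2.11 and 2.39 in ground, with a log2 change of 0.93 ± 0.34 (SE; unadjusted p = 0.023, adjusted p = 1.00), and its low mean of 3.11 CPM puts it outside the rule for named genes. Groups did not overlap for 6 chains that were lower (16.2%, against 5.73% of all genes): COL4A1, COL4A2, COL4A4, COL5A1, LAMB2 and LAMB3. They did not overlap either for 2 that were higher, LAMA1 and COL12A1 (5.41%, against 4.94%). COL4A1 differed by -0.42 ± 0.21 (SE; interval -0.91 to 0.069) and COL4A2 by -0.41 ± 0.26 (-1.01 to 0.20), which was -0.23 without ground replicate 3. The comparison shares its ground libraries with the previous one. The medians of the basement membrane collagens and of the filament and network chains were -0.28 and -0.49, and those of the anchoring and fibril-associated chains 0.43 and 0.55. Without space_1g replicate 1 they were -0.37, -0.03, -0.37 and -0.15 in the same order, and the median of all chains was -0.013 without ground replicate 3. COL7A1 shows how much 1 library carried here: its log2 change of 1.42 was -0.58 without space_1g replicate 1 and 3.43 without space_1g replicate 2.

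Between the flight groups, which were set up to differ in gravity, 23 of 37 chains (62.2%) were lower in space_microg, against 53.4% of all genes, with a median log2 change of -0.11 against -0.03. The chains' median was 0.12 once trends on GC content and length were taken out. Neither limma (0% of all genes; smallest adjusted p 0.912), edgeR nor DESeq2 called a chain, and 0 had an unadjusted p under 0.05 by limma, where 1.32% of all genes (212) did. COL9A2 and COL12A1 were lower without overlap (5.41%, against 6.91%), and LAMA2 and LAMB1 higher without overlap (5.41%, against 7.24%). COL4A1 and COL4A2 differed little, at 0.013 (interval -0.48 to 0.50) and -0.03 (-0.64 to 0.57). The anchoring and the fibril-associated chains had the lowest medians of the classes, both -0.83. COL7A1 had the largest negative log2 change of all 16103 genes, -1.99 ± 1.54 (SE; interval -5.50 to 1.51; unadjusted p = 0.23, adjusted p = 0.912). That value rested on space_1g replicate 1, without which it was 0.012. COL17A1 likewise had -1.55 ± 1.33, and without that library the anchoring median was -0.063 and the fibril-associated one -0.23.

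The chains' deviations followed base composition in several libraries. In space_microg replicate 2, Spearman's rho between GC content and the deviation from the gene mean was -0.77 across the 37 chains and -0.73 across 13842 genes. The 18 chains above 60% GC had a median deviation of -0.71 there, and the 9 chains below 50% GC one of -0.018. The sign was opposite in ground replicate 3 and space_1g replicate 1, with 0.61 and 0.44 across the chains, and 0.48 and 0.42 across all genes. These are correlations across genes of 1 library, which are no independent replicates. After trends on GC content and length were taken out of every library, the median of the 37 chains in space_microg against ground was -0.09 in place of -0.29, with 2 chains (COL6A3 and COL6A1) at an unadjusted p under 0.05, against 4.33% of all genes. The basement membrane collagen median was -0.10 in place of -0.34, with 4 of 6 lower, and the fibrillar median changed sign to 0.072. In space_1g against ground the same step did not shrink these medians. There they were -0.13 in place of -0.10 for all chains, with 23 of 37 lower in both. For the basement membrane collagens they were -0.32 in place of -0.28, and for the fibrillar chains -0.24 in place of -0.20. By limma 3 chains then had an unadjusted p under 0.05, as did 351 of 13842 genes.

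**Figure D5:**
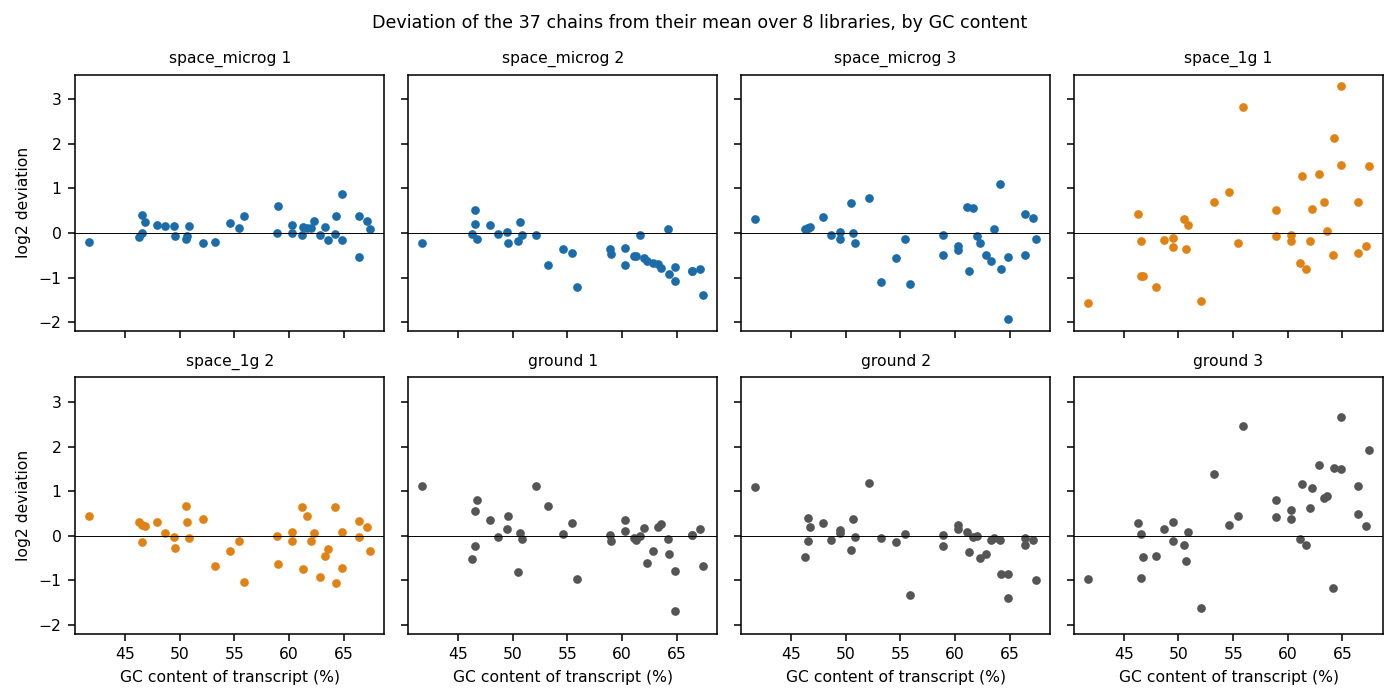
Deviation of each of the 37 chains from its mean over the libraries, on the log2(CPM + 1) scale, against the GC content of its longest transcript in percent, 1 panel per library and 1 point per chain. Points descend with GC in space_microg replicate 2 (rho -0.77) and ascend in ground replicate 3 (rho 0.61).

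The genes that process collagen were set beside the chains as a list of 36, of which 32 were measured. In space_microg against ground 17 were lower and 15 higher, with a median log2 change of -0.03, and none passed the adjusted threshold. Both genes with an unadjusted p under 0.05 (6.25% of the list, against 4.32% of all genes) modify collagen lysines: PLOD3 with 87.4 to 129 CPM in space_microg and 134 to 267 in ground (-0.68 ± 0.29, SE; unadjusted p = 0.047, adjusted p = 0.866), and COLGALT1 with 107 to 142 against 143 to 186 (-0.38 ± 0.17; 0.050, adjusted p = 0.866). PLOD3 was at -0.37 without ground replicate 3 (unadjusted p = 0.15), and COLGALT1 at -0.25 without space_microg replicate 2 (0.18) and -0.21 with the GC and length trends removed (0.13). In space_1g against ground 23 of 32 were lower with a median of -0.13 and 0 had an unadjusted p under 0.05; PLOD1, a lysyl hydroxylase, had the smallest at -0.52 ± 0.24 (unadjusted p = 0.064, adjusted p = 1.00), a value that was -0.11 without space_1g replicate 1 and -0.92 without space_1g replicate 2. Between the flight groups 12 were lower and 20 higher, with a median of 0.045.

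Of 14 partners of the basement membrane 11 were measured, 8 of them lower in space_microg than on the ground, with a median of -0.06. FRAS1, which helps to fix the epidermal basement membrane to the dermis, had 3.96, 2.51 and 3.92 CPM in space_microg, 3.77 and 3.96 in space_1g, and 6.92, 6.61 and 5.98 in ground. All flight libraries were below all ground libraries, and the log2 change in space_microg was -0.76 ± 0.22 (SE; unadjusted p = 0.0073, adjusted p = 0.866), or -0.55 (0.051) with the GC and length trends removed. HSPG2, the heparan sulfate proteoglycan perlecan, differed by -0.49 ± 0.27 (unadjusted p = 0.11), with its lowest value, 629 CPM, in space_microg replicate 2 and 810 to 1365 elsewhere. With the GC and length trend removed it was 0.055. SMOC1, a calcium-binding matrix protein, had 32.3 CPM in space_1g replicate 1 and 31.6 in ground replicate 3 against 7.86 to 14.6, so that its highest pair of libraries was that of COL7A1 and COL17A1. In space_1g against ground 8 of 11 partners were lower, and between the flight groups 5. In both comparisons with the ground FRAS1 was the only partner with an unadjusted p under 0.05 by limma, lower in flight. That is 9.09% of the list each time, against 4.32% of all genes for space_microg and 1.55% for space_1g. Between the flight groups 0 partners had such a p, and none passed the adjusted threshold in any comparison.

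All 17 receptors and hemidesmosome genes of the third list were measured, and 0 had an unadjusted p under 0.05 in any comparison. In space_microg against ground 10 were lower, with a median of -0.05. RPSA, a ribosomal protein also known as a laminin receptor, had 396, 476 and 670.2 CPM in space_microg and 310 to 406 in ground (0.48 ± 0.23, SE; unadjusted p = 0.063). ITGB1, the beta chain of most collagen and laminin receptors, had 801 CPM in space_1g replicate 1 and 1089 to 1353 in the other 7. PLEC, the hemidesmosome linker plectin, was highest in the libraries that stand apart, at 1969 and 1614 CPM, against 426 to 1182.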

How the data were processed

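Total RNA was sequenced after ribosomal RNA depletion with a stranded kit, per the labels' protocols. The submitters' processing notes list STAR 2.5.3, featureCounts, edgeR, FastQC and CASAVA 1.8.2, and do not say what each was used for. The deposited signal is CPM scaled by effective library size: within a tolerance of 1e-06, 100% of values were whole multiples of 1 read, and edgeR's TMM factors on these reads gave the deposited values. Values were analysed as log2(CPM + 1), which understates the change of low genes, for genes with at least 1 CPM in at least 2 libraries; 16103 passed, all 37 chains described among them, and 50 did not. Another gene that the symbol rule matches is not reported here; it stayed in the fit of all genes and is in no count or median over the chains. All 8 libraries entered 1 fit of limma 3.58.1 (R 4.3.3, mean trend, two-sided, no covariates), with Benjamini-Hochberg adjustment over all genes at 0.05. The test was planned for CPM and kept for scaled CPM. edgeR 4.0.16 and DESeq2 1.42.0 on recovered reads, other pseudocounts, filters and scaling, a replicate block, removal of GC and length trends, and leaving out libraries were alternatives. Steps were tested on simulated counts with planted changes and a planted GC trend. The simulation had a fixed spread and no library that stands apart, so it does not give the power of the tests here. The chains, classes and lists were chosen with earlier results of these data known. Named genes were, per comparison, chains past the threshold or else averaging 5 CPM or more with an unadjusted p under 0.05, the 2 highest per kilobase of each class, and up to 3 per related list with the smallest p; others were chosen after their values were seen. Gene positions, lengths and GC content are those of GENCODE 29, where 13867 of 16153 symbols were found once.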

Additional observations from a re-analysis of the deposited data

How the results depend on the processing

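The number of chains called stayed at 0 in all 3 comparisons under every alternative run. The number of all genes called in space_microg against ground was 0 in each case except with DESeq2, which called 3, namely ADCY4, FBLN5 and RBM3. The log2 change of COL7A1 reversed in all 3 comparisons. In space_microg against ground it was 0.83 without both libraries that stand apart, and -1.37 to 0.83 with 1 library left out. In space_1g against ground it was -0.58 to 3.43 with 1 library left out. In space_microg against space_1g it was 0.012 without both, and -4.00 to 0.012 with 1 left out. COL6A3 in space_1g against ground ranged from -1.33 to 0.039 with 1 library left out. HSPG2 in space_microg against ground turned to 0.055 with the GC and length trend removed. ITGB1 in space_microg against space_1g turned to -0.010 without both libraries, and ranged from -0.010 to 0.71 with 1 left out. The cause of these reversals was not tested beyond the libraries left out. Of 1240 alternative values, 1196 were labelled the same, 34 moved and 10 reversed. For a single gene the same meant an unchanged sign and side of the threshold. For a class median it meant a value within the SD between libraries of a group, whatever its sign. For a count it meant an equal or similar number. With the replicate block, limma called 0 genes in every comparison, and 6, 2 and 3 chains had an unadjusted p under 0.05 in place of 3, 1 and 0. The share of all genes with the block is not given here, so the rise is not read as a result about the chains. Same-numbered libraries of different groups had correlations of deviations from -0.68 to 0.68, so the numbers were not taken to pair the samples. The count of chains with an unadjusted p under 0.05 was an alternative count added after seeing the data. With 1 library left out it was 1 to 5 in space_microg against ground, highest without space_microg replicate 1. In space_1g against ground it reached 9 without ground replicate 3. Leaving out a space_1g library leaves 1, whose spread is taken from the other groups. For comparisons with space_1g no count from such a fit is given. The share of all genes in the fits with 1 library left out is not given here, so these counts are not read as a result about the chains. Among the chains of fewest reads, COL3A1 had no read in ground replicate 3 and COL2A1 had as few as 7.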
